A study of Mus musculus with 4 samples.

Results

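The genes of the MHC class I pathway were followed in BCR-ABL leukemia stem cells with and without Hif1a, in a set of 10 genes taken by name: B2m, H2-K1, H2-D1, Tap1, Tap2, Tapbp, Psmb8, Psmb9, Psmb10 and Nlrc5. A gene counted as measured where a probe set of the array carries its symbol and no other, and 8 of the 10 did, among 19938 genes in all. The 2 heavy chain genes H2-K1 and H2-D1 have no such probe set. The disease model is chronic myeloid leukemia in the mouse, for which marrow of 5-fluorouracil-treated donors is infected with a BCR-ABL/GFP retrovirus and given to C57BL/6 recipients. The Hif1a-/- group was made from marrow of Hif1a-/- mice and the WT group from marrow of C57BL/6 mice, all of 8 weeks of age per the labels. Cells of both groups carry BCR-ABL and were taken from recipient marrow on day 14 as GFP+ cells without lineage markers and with c-Kit and Sca-1. Each genotype has 2 samples, named biological replicates, and each was run on 1 Affymetrix array. Since no label states that separate animals were used, the spread behind each p-value may be technical. How Hif1a was deleted, and in which cells, is not given in the sources used here.

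MHC class I molecules show peptides from inside the cell to CD8+ T cells and engage receptors of natural killer cells. The proteasome cuts proteins into peptides, the TAP transporter carries these into the endoplasmic reticulum, and tapasin and chaperones load them onto a heavy chain paired with beta-2 microglobulin. Interferons raise the whole pathway, partly by replacing the 3 catalytic subunits of the standard proteasome with immunoproteasome subunits, and NLRC5 is the transactivator of class I promoters.

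The genes lie at few loci, and the upstream sequences of 3 of them are shown because their expression values differ most in kind: the gene with the largest difference between genotypes (B2m), the one with the largest spread between arrays (Tapbp), and the start region that Tap1 has in common with Psmb9. Each is the 250 bases before the gene's RefSeq start (GRCm38.p6), read 5′ to 3′ on the strand of the gene, and capitals mark matches to the motifs named below.
B2m, chr2:122147437-122147686, + strand: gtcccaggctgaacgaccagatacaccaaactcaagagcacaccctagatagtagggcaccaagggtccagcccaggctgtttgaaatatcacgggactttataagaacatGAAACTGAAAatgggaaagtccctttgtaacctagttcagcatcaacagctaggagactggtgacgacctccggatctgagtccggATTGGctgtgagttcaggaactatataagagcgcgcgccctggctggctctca
Tapbp, chr17:33919228-33919477, + strand: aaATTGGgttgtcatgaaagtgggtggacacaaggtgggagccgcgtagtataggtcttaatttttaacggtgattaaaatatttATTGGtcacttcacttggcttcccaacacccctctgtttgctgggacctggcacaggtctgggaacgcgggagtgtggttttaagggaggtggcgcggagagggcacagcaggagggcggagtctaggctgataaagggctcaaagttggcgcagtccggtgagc
Tap1, chr17:34187306-34187555, + strand: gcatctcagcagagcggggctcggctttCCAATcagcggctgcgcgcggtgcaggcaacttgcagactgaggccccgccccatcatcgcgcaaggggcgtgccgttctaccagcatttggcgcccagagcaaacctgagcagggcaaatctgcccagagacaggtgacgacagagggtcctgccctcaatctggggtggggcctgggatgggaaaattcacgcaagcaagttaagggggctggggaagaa

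Psmb9, Tap1, Psmb8 and Tap2 sit side by side in 34292 bases of chromosome 17, inside the MHC. Psmb9 and Tap1 are transcribed away from each other, and 225 bases separate their first bases (34187330 and 34187556), so the Tap1 sequence above, read on the other strand, is also the start region of Psmb9. Tapbp (33919478 to 33929290) lies on the same chromosome, B2m (122147687 to 122153082) on chromosome 2, and Psmb10 (105935728 to 105938392) and Nlrc5 (94434335 to 94527272) on chromosome 8. Promoter windows were found for 8 of the 10 genes, and Tap2 and Nlrc5, which had none, were not searched. The interferon-stimulated response element, searched as GAAA, any 2 bases and GAAA again and like the others on both strands, was present in the B2m sequence, 139 to 130 bases before the start, and in 2.98% of all 32851 mouse windows of this length. CCAAT, the core of the Y box, was present upstream of B2m, Tapbp, Psmb9, Tap1, H2-K1 and H2-D1, beside 33.8% of all windows. The CRE-like TGACGC of the classical class I promoter was present upstream of H2-K1 and H2-D1 but in none of the measured genes' windows, beside 6.12% of all windows. ACGTG, the core letters of hypoxia response elements, was found upstream of Psmb10 alone among the 8 genes searched, and in 16.6% of all windows. In Psmb10 it gave overlapping matches on both strands, 116 to 111 bases before the start. These matches describe letters, not bound sites.

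The deposited values are log2 expression after RMA, a procedure that normalizes the arrays together, so differences below are on the log2 scale and levels of different genes cannot be set against each other. Hif1a itself read 11.25 and 11.39 in Hif1a-/- cells, against 11.34 and 11.50 in WT cells, and with overlapping groups it checks the genotype labels only weakly. The WT arrays lay farther apart than the Hif1a-/- arrays. The median absolute difference over all genes was 0.193 between the WT arrays and 0.107 between the Hif1a-/- arrays, beside 0.0857 between the genotype means. Of 5 measured stem and progenitor genes (Cd34, Flt3, Slamf1, Meis1 and Kit, a marker the sort used) all read lower in WT replicate 1 than in WT replicate 2. Their mean log2 level was 9.72 and 10.02 on the Hif1a-/- arrays, against 9.29 and 10.52 in WT replicates 1 and 2, so the WT arrays lay on either side. Ly6a, the gene of Sca-1, was not analysed here. Of 5 neutrophil genes, Ly6g, S100a8 and S100a9 were higher in WT replicate 1 than in WT replicate 2 and the granule genes Elane and Mpo lower, with a mean level of 12.95 and 12.86 in Hif1a-/- cells, against 13.23 and 12.40 in WT replicates 1 and 2.

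Each of the 8 measured class I genes read lower, on average, in Hif1a-/- cells than in WT cells, by small amounts. The differences ran from -0.19 for B2m to -0.01 for Nlrc5, with a median of -0.07, against a median of 0.03 over all genes tested, of which 38.6% had a lower mean. The genotypes separated in 3 of the 8 (B2m, Psmb8 and Psmb9), with each Hif1a-/- array under each WT array, and in 0 the other way round, beside 9.05% and 15.7% of all genes. With limma and Benjamini-Hochberg adjustment over all genes, 0 of the 8 passed a threshold of 0.05 (smallest unadjusted p 0.200, adjusted p 0.999), and neither did any of the 19938 genes (0% called), of which 334 had an unadjusted p under 0.05. For a single gene the smallest two-sided p of an exact permutation test is 0.333 at this number of arrays. Without WT replicate 1 the count of genes with a lower mean was 5 of 8, and the median was -0.02, or -0.16 without WT replicate 2. In RNA of a sorted population, fewer cells of a type and less RNA per cell cannot be told apart.

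**Figure D1:**
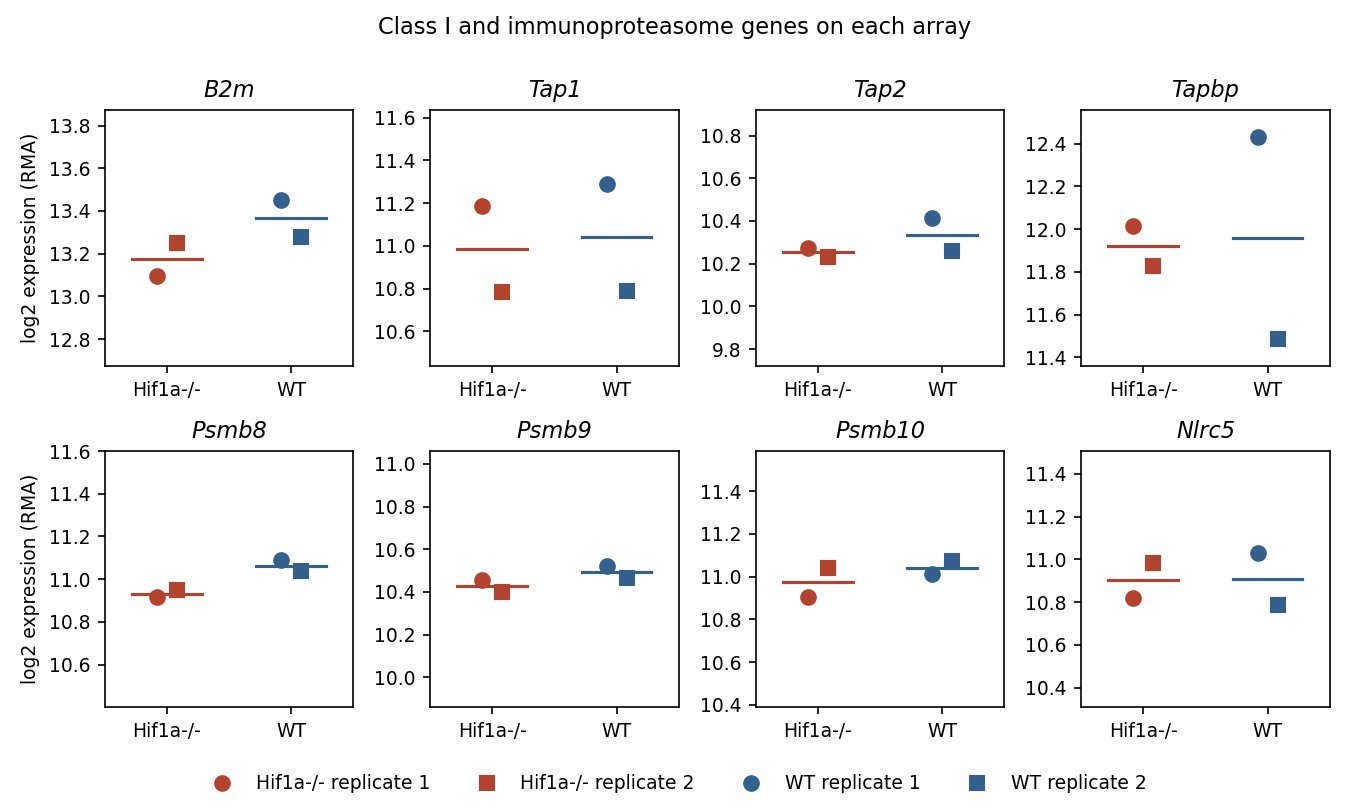
Log2 RMA expression (vertical axis) of each measured gene on the 4 arrays, Hif1a-/- left and WT right, circles for replicate 1, squares for replicate 2 and bars for genotype means; every panel spans the same range. For Tapbp the WT arrays lie at 12.43 and 11.49, on either side of both Hif1a-/- arrays, whereas the points of Psmb8 and Psmb9 lie close together within each genotype.

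B2m encodes beta-2 microglobulin, the light chain that every class I molecule needs to reach the surface. It read 13.10 and 13.25 in Hif1a-/- cells, against 13.45 and 13.28 in WT cells. The genotypes separated, by 0.03 where they came closest. The difference was -0.19 ± 0.14 (SE), a 1.14-fold lower level in Hif1a-/- cells, and the 95% interval ran from -0.52 to 0.13 (limma, unadjusted p 0.200, adjusted p 0.999). Leaving out single arrays moved it between -0.11, without WT replicate 1, and -0.28, without WT replicate 2.

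The heavy chains could be seen only jointly. Both probe sets in question carry H2-K1, H2-D1 and LOC547349 together, so their signal belongs to no single gene, and they stay outside all counts here. One read 12.59 and 12.68 in Hif1a-/- cells and 12.84 and 12.60 in WT cells, the other 12.45 and 12.62 in Hif1a-/- cells and 12.72 and 12.61 in WT cells. Between the genotype means lay -0.09 and -0.13, the groups overlapped, and WT replicate 1 was the highest array in both.

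Psmb8, Psmb9 and Psmb10 encode the inducible catalytic subunits of the immunoproteasome. Psmb8, the chymotrypsin-like subunit, read 10.91 and 10.95 in Hif1a-/- cells, against 11.09 and 11.04 in WT cells. Psmb9, which replaces the caspase-like subunit, read 10.45 and 10.40 in Hif1a-/- cells, against 10.52 and 10.47 in WT cells. The groups of both genes did not overlap, although for Psmb9 they came within 0.01 of each other. Psmb10, which replaces the trypsin-like subunit, read 10.91 and 11.04 in Hif1a-/- cells and 11.01 and 11.07 in WT cells, with overlapping groups. The differences were -0.13 ± 0.12 (SE) for Psmb8, -0.07 ± 0.12 for Psmb9 and -0.07 ± 0.13 for Psmb10, with unadjusted limma p of 0.312, 0.591 and 0.604. Psmb10 gave -0.0012 without Hif1a-/- replicate 1 and -0.14 without Hif1a-/- replicate 2, and Psmb9 gave -0.040 without WT replicate 1. The 95% intervals reached from -0.42 to 0.16 for Psmb8, from -0.36 to 0.22 for Psmb9 and from -0.37 to 0.23 for Psmb10, so none of these covers a 2-fold change in either direction.

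The standard subunits that they replace had higher means in Hif1a-/- cells, although that of Psmb7 depended on single arrays. Psmb5, the constitutive chymotrypsin-like subunit, read 12.97 and 12.89 in Hif1a-/- cells, against 12.77 and 12.79 in WT cells. Psmb6, the caspase-like subunit, read 11.45 and 11.35 in Hif1a-/- cells, against 11.13 and 11.28 in WT cells. For these genes each Hif1a-/- array was above each WT array, as in 15.7% of all genes, whereas the groups of the trypsin-like subunit Psmb7 overlapped. The differences were 0.15 for Psmb5, 0.20 for Psmb6 and 0.03 for Psmb7, with unadjusted limma p of 0.246, 0.169 and 0.832. Without WT replicate 1 the difference was 0.12 for Psmb6 and -0.03 for Psmb7, which was also at -0.03 without Hif1a-/- replicate 1.

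The ratio of each inducible subunit to its standard counterpart was then taken within each array and set to 0 at the WT mean. For Psmb8 over Psmb5 it was -0.34 and -0.23 in Hif1a-/- cells, against 0.03 and -0.03 in WT cells. Psmb9 over Psmb6 gave -0.29 and -0.25 in Hif1a-/- cells, against 0.10 and -0.10 in WT cells. The differences were -0.29 and -0.27, and Psmb9 over Psmb6 gave -0.17 without WT replicate 1. Psmb10 over Psmb7 gave -0.22 and 0.03 in Hif1a-/- cells and 0.03 and -0.03 in WT cells, a difference of -0.10 with overlapping groups, which was 0.03 without Hif1a-/- replicate 1. The genotypes separated in opposite directions in the genes of the Psmb8 and Psmb9 pairs, so that their ratios separate follows from this and is no further result. With 2 arrays a genotype the smallest two-sided exact permutation p for such a ratio is 0.333.

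Other proteasome genes had mostly higher means in Hif1a-/- cells, as 61.4% of all genes did. Of 12 other subunits of the core particle, 9 read higher and 3 lower, with Psma5 at 0.31 and Psmb11, the thymus subunit, at -0.06. Of 17 measured subunits of the regulatory particle, which binds and unfolds ubiquitin-tagged proteins, 14 read higher and 3 lower, from 0.27 for Psmd1 to -0.05 for Psmd13. The medians were 0.11 and 0.07, and 0 genes of either list had an unadjusted limma p under 0.05, against 0.697% of all genes on the higher side. Without WT replicate 1 the medians were 0.01 and -0.01. The interferon-inducible activator subunits Psme1 and Psme2, chosen with their values in view, gave -0.05 and -0.08 with overlapping groups. Among 9 activator and assembly genes, 6 read higher and 3 lower, with a median of 0.04, 0 genes under an unadjusted p of 0.05, and ends at 0.21 for the assembly chaperone Psmg1 and at -0.15 for the activator Psme4. Without WT replicate 1 their median was -0.03, 5 of 9 read lower, and Psmg1 was at -0.10.

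**Figure D2:**
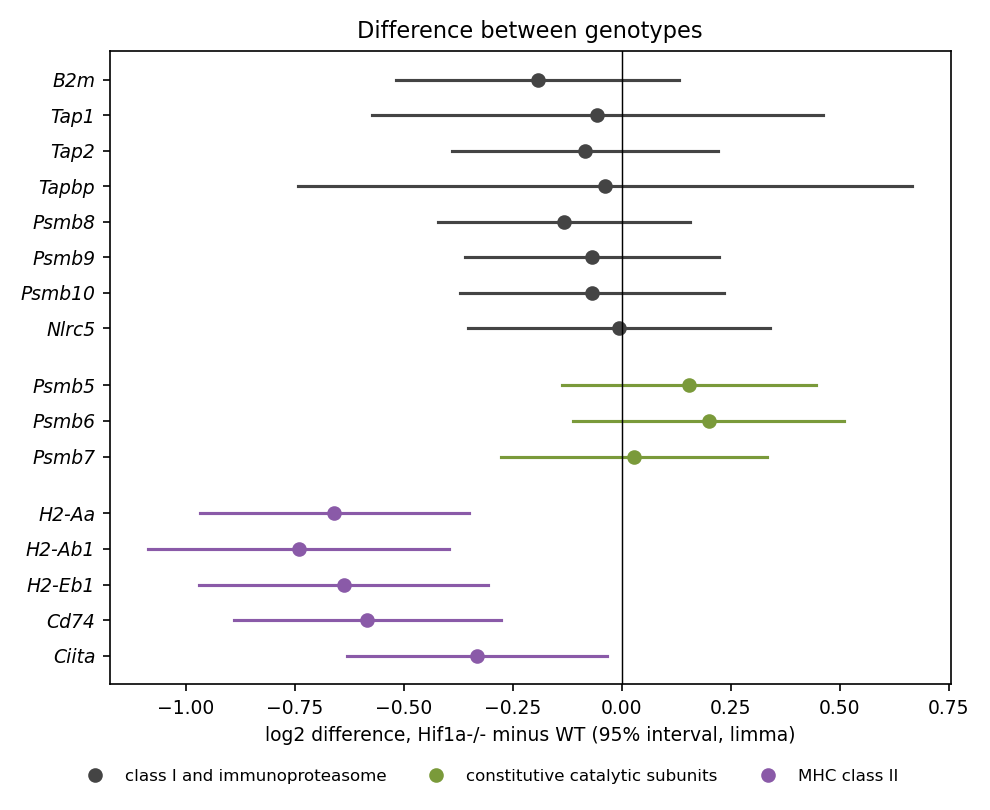
Log2 difference, Hif1a-/- minus WT (horizontal axis; points, with 95% limma intervals as lines), for the measured class I genes, the standard catalytic subunits and 5 MHC class II genes. The class I points run from -0.19 to -0.01 and their intervals cover 0, the standard subunits lie between 0.03 and 0.20, and the class II genes lie between -0.74 and -0.33.

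For Tapbp and Tap1 the gap between the WT arrays was far wider than the genotype difference. Tapbp encodes tapasin, which bridges the empty class I molecule to the transporter. It read 12.01 and 11.83 in Hif1a-/- cells, against 12.43 and 11.49 in WT cells. The WT arrays enclosed both Hif1a-/- arrays, 0.94 apart, and the difference between genotypes was -0.04 ± 0.29 (SE), with a 95% interval from -0.74 to 0.67. It was 0.43 without WT replicate 1 and -0.51 without WT replicate 2, where the adjusted limma p was 0.0291 in a fit in which the lone WT array is assumed to vary like the Hif1a-/- arrays. The sign thus depends on which WT array is kept.

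Tap1, a subunit of the peptide transporter, read 11.18 and 10.78 in Hif1a-/- cells, against 11.29 and 10.79 in WT cells. Each genotype had a high and a low array about as far apart as in the other, and the genotype means differed by -0.06 ± 0.21 (SE). Without WT replicate 1 the difference was 0.20, and without WT replicate 2 it was -0.31. Tap2, the partner of Tap1 in the transporter, read 10.28 and 10.23 in Hif1a-/- cells and 10.41 and 10.26 in WT cells. Its groups overlapped by 0.02, and the difference of -0.08 was -0.0075 without WT replicate 1.

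Tap1 and Psmb9 share their start region but not their spread. Replicate 2 minus replicate 1 was -0.40 for Tap1 and -0.06 for Psmb9 in Hif1a-/- cells, and -0.50 and -0.06 in WT cells. Whether the pair differs in this beyond the error of single probe sets was not tested.

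Of 11 measured genes of loading and processing in the endoplasmic reticulum, Tap1, Tap2 and Tapbp included, 7 read lower and 4 higher, with a median of -0.04 and 0 genes under an unadjusted limma p of 0.05. Pdia3, the oxidoreductase of the loading complex, differed by -0.15, with the genotypes separated, and by -0.04 without WT replicate 1. Erap1, the peptidase that trims peptides to length, differed by -0.16 with overlapping groups and by -0.03 without Hif1a-/- replicate 2, and Sec61b, a channel subunit, by 0.06. The chaperones Calr and Canx, chosen with their values in view, gave -0.03 and 0.00.

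Nlrc5, the class I transactivator, was covered by 19 probe sets, more than any other gene of the set, and these gave unlike values. The set with the highest mean, which stands for the gene above, read 10.82 and 10.99 in Hif1a-/- cells, against 11.03 and 10.79 in WT cells. Its WT arrays enclosed both Hif1a-/- arrays, and the difference was -0.01 ± 0.14 (SE). Of the 19 sets, 16 read lower in Hif1a-/- cells and 3 higher, from -0.42 to 0.12 with a median of -0.17, where 39.4% of all 21789 single-symbol sets read lower. The genotypes separated with Hif1a-/- lower in 12 sets, as in 9.62% of all such sets, and with Hif1a-/- higher in 1, while they overlapped in 6. The 19 sets read the same RNA on the same arrays and are not replicates.

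Among the sets of Nlrc5 with the clearest separation, 1 read 8.14 and 8.11 in Hif1a-/- cells, against 8.50 and 8.60 in WT cells. Another read 8.30 and 8.51 in Hif1a-/- cells, against 8.83 and 8.82 in WT cells. These were the 2 sets of Nlrc5 with an unadjusted limma p under 0.05 (0.0120 and 0.0171), as were 1.16% of all single-symbol sets on the lower side, and both had an adjusted p of 0.999. They were picked out after their values were seen. Both are among the dimmest of the 19 sets, and the mean levels of the 19 ran from 8.07 to 10.91. The mean of all 19 sets gave a difference of -0.14, with an unadjusted limma p of 0.306. A lower mean was found in 14 of 19 sets without WT replicate 1 and in 18 without WT replicate 2.

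**Figure D3:**
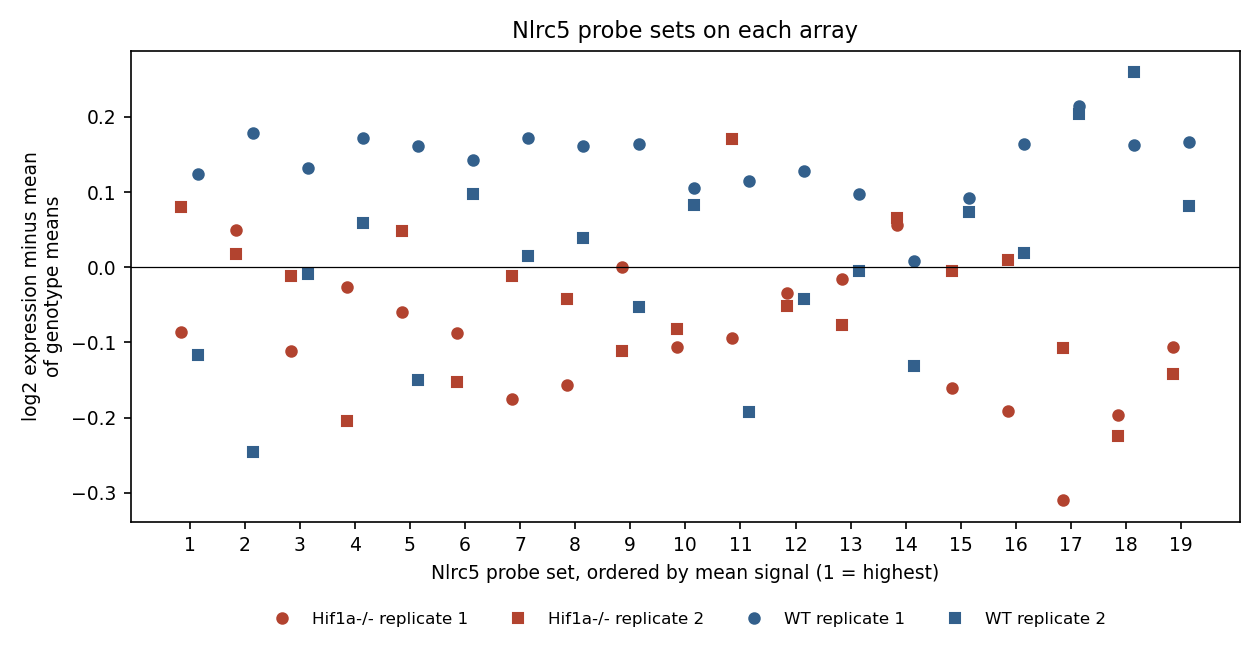
Log2 expression of the 19 Nlrc5 probe sets on each array, minus the mean of the genotype means of that set (vertical axis), with the sets ordered by mean signal (horizontal axis; 1 is the set that stands for the gene). Hif1a-/- points lie to the left of WT points in each set. In 12 sets both Hif1a-/- points lie below both WT points, while the set in first place is among the 6 with overlapping groups.

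The class I genes outside the set gave values on both sides of 0. Beside H2-K1 and H2-D1, 13 class I, class Ib and class I-like genes were measured, of which 8 read lower and 5 higher, with a median of -0.01. None had an unadjusted limma p under 0.05. The ends were Cd1d1, which presents lipids, at -0.16 and its neighbour Cd1d2 at 0.21, and H2-T24 and the iron regulator Hfe differed by -0.16 and -0.14. Within WT, 9 of the 13 read lower in replicate 2 than in replicate 1, and in 12 of 13 the WT arrays differed by more than the genotype means, beside 75.5% of all genes. Members of this family are near copies of each other, and a probe set named for 1 of them may also take signal from others.

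The interferon-stimulated genes also differed between the WT arrays. WT replicate 2 read below WT replicate 1 in 7 of the 8 class I genes, all but Psmb10, and in 26 of 26 interferon-stimulated genes, beside 54.5% of all genes. Within Hif1a-/- cells, replicate 2 read below replicate 1 in 4 of the 8 and in 22 of 26, beside 49.6% of all genes. The lists of interferon signalling and of class I transcription were mixed. WT replicate 2 read below WT replicate 1 in 12 of 15 genes of interferon receptors and signalling but in 3 of 13 class I transcription factors. Irf1, an interferon-induced activator of class I genes, read 10.21 and 9.91 in Hif1a-/- cells, against 10.92 and 10.04 in WT cells. Its difference of -0.42 had an unadjusted limma p of 0.184 and overlapping groups, and it was 0.02 without WT replicate 1 and -0.87 without WT replicate 2.

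The interferon-stimulated genes read lower in Hif1a-/- cells in 17 cases and higher in 9, with a median difference of -0.09 between genotypes, against -0.74 between WT replicate 2 and WT replicate 1. The genotype median was 0.34 without WT replicate 1 and -0.48 without WT replicate 2. Between the WT arrays the class I genes had a smaller median, -0.16, with gaps of 0.94 for Tapbp and 0.50 for Tap1 but of 0.05, 0.06 and 0.06 for Psmb8, Psmb9 and Psmb10. In Tapbp, Tap1, Tap2 and Nlrc5 the WT arrays differed by more than the genotype means, and in B2m, Psmb8, Psmb9 and Psmb10 by less. The chemokine gene Cxcl10 had the highest difference of the list, 0.81, and was the only one of the 9 higher genes with separated genotypes. Thus 1 of 26 separated with Hif1a-/- higher, beside 15.7% of all genes, and 2 with Hif1a-/- lower, beside 9.05%. Cxcl10 read 10.94 and 9.96 in Hif1a-/- cells, against 9.90 and 9.39 in WT cells. Its unadjusted limma p was 0.0468, beside 0.697% of all genes under 0.05 on the higher side. The Cxcl10 difference was 0.32 without Hif1a-/- replicate 1 and 1.29 without Hif1a-/- replicate 2. How far the interferon response of single samples, or the stem cell and neutrophil genes that also differed between the WT arrays, takes part in the class I values was not tested.

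Of 15 measured genes of interferon receptors and signalling, 13 read lower and 2 higher, with a median of -0.16, and in 5 the genotypes separated with Hif1a-/- lower, beside 9.05% of all genes. The median was -0.05 without WT replicate 1, where 9 of 15 read lower, and -0.31 without WT replicate 2. Irf8, a transcription factor of monocytes and dendritic cells, was the only one with an unadjusted limma p under 0.05 (0.00460), beside 0.978% of all genes on the lower side, at 9.49 and 9.29 in Hif1a-/- cells, against 9.90 and 10.07 in WT cells. The receptor subunit Ifnar2 and the phosphatase Ptpn2, which restrains JAK signalling, differed by -0.22 and -0.25 with groups that did not overlap. Of 13 factors of class I transcription beside Nlrc5, 6 read lower and 7 higher, with a median of 0.02. Of these, Ciita alone had an unadjusted limma p under 0.05 (0.0342), on the lower side, beside 0.978% of all genes. Ciita is counted again among the class II genes below. Rfx5, a subunit of the complex that recruits NLRC5, differed by -0.28 with overlapping groups.

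**Figure D4:**
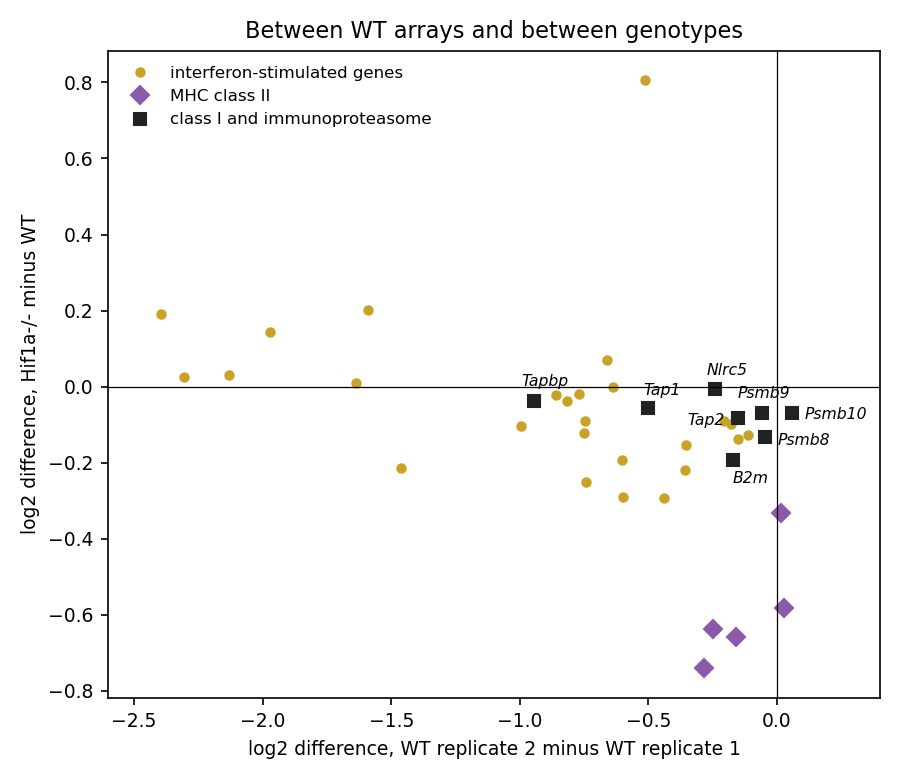
Log2 difference between genotypes, Hif1a-/- minus WT (vertical axis), against that between the WT arrays, replicate 2 minus replicate 1 (horizontal axis), for the measured class I genes (squares, named), 26 interferon-stimulated genes (circles) and 5 MHC class II genes (diamonds). Tapbp and Tap1 lie farther to the left than the other class I genes, at genotype differences of -0.04 and -0.06. The class II genes lie low, with WT arrays at most 0.28 apart.

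MHC class II genes, which present peptides to CD4+ T cells, gave other values on the same arrays. H2-Ab1 read 11.40 and 11.34 in Hif1a-/- cells, against 12.25 and 11.97 in WT cells, and the transactivator Ciita read 8.41 and 8.54 in Hif1a-/- cells, against 8.80 and 8.82 in WT cells. All 5 class II genes had an unadjusted limma p under 0.05 on the lower side, beside 0.978% of all genes, whereas 0 of the 8 class I genes did, and whether the sets differ was not tested. Markers of other cells that use these pathways read as follows. The dendritic cell genes Xcr1 and Clec9a differed by -0.82 and -0.75 and Itgax by -0.35, while Zbtb46 differed by 0.23 with the genotypes separated and Cd209a and Batf3 by 0.12 and 0.04. Of 7 dendritic cell markers 4 read lower, among them Flt3 at -0.47 with overlapping groups, already counted with the stem and progenitor genes. The mean log2 level of the 7 was 8.48 and 8.58 on the Hif1a-/- arrays, against 8.74 and 8.90 on the WT arrays. Flt3 itself read 9.02 and 10.48 in WT replicates 1 and 2. T cell markers had a mean level of 7.56 and 7.59 in Hif1a-/- cells and of 7.62 and 7.33 in WT cells, and B cell markers of 8.46 and 8.21 in Hif1a-/- cells and of 8.72 and 8.08 in WT cells. Monocyte markers stood at 9.55 and 10.11 in Hif1a-/- cells, against 10.39 and 10.16 in WT cells, and natural killer cell markers at 8.05 and 7.95 in Hif1a-/- cells, against 8.18 and 8.08 in WT cells. Of 4 mast cell markers all read lower, at a mean level of 10.20 and 10.70 in Hif1a-/- cells, against 11.09 and 11.11 in WT cells. Their median difference was -0.58, or -0.19 without Hif1a-/- replicate 1, where 3 of 4 read lower. The protease gene Mcpt4 differed by -1.30 (limma p 2.27e-05, or 0.239 after Benjamini-Hochberg adjustment). It was the only 1 of the 4 with an unadjusted limma p under 0.05, beside 0.978% of all genes on the lower side. The erythroid genes Klf1 and Tfrc differed by 0.29 and 0.36, at a mean level of 10.94 and 10.83 in Hif1a-/- cells, against 10.53 and 10.59 in WT cells. The monocyte gene Ccr2 differed by -0.87, or by -0.47 without Hif1a-/- replicate 1. Csf1r, Adgre1 and Cd68 differed by -0.23, -0.37 and -0.32 with overlapping groups. Among the natural killer cell genes Klrk1 differed by -0.41, while Ncr1, Nkg7 and Klrb1c gave -0.10, -0.04 and 0.01 with overlapping groups. Plasmacytoid dendritic cell markers stood at 8.84 and 8.75 in Hif1a-/- cells, against 8.78 and 8.92 in WT cells. An array value has no 0, so absence of these cells cannot be read from them, and their part in the class I values was not tested.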

How the data were processed

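RNA of 4 samples, 2 Hif1a-/- and 2 WT, was measured on Affymetrix arrays. The authors deposited log2 expression values of 35556 probe sets, made with Affymetrix Expression Console 1.1 and RMA per the submitters' processing notes. Its other settings are not stated there. RMA understates differences of dim genes and scales out changes of total RNA. Names came from the platform's annotation, in which 21789 probe sets had 1 symbol, 1621 had several and 12146 are unnamed here. Each gene was represented by its single-symbol probe set with the highest mean, which left 19938 genes, 19856 of them found in RefSeq (GRCm38.p6) by Entrez number.

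The test was limma 3.58.1 (lmFit, then eBayes; R 4.3.3) on genotype alone, adjusted by Benjamini-Hochberg over all genes at 0.05. It had 2 residual and 4.46 prior degrees of freedom, so precision is limited by the number of arrays. The median standard error of a difference was 0.138. On 10 simulated data sets for this comparison, with 19938 genes of which 200 were changed, 63.7% of 2-fold and 98.1% of 4-fold changes were called. The simulation gave each gene independent errors of the same spread on every array. In the real data the median absolute difference was 0.193 between the WT arrays and 0.107 between the Hif1a-/- arrays. The simulated shares may therefore not hold for these arrays. Same-numbered arrays were checked for pairing, and replicate differences had a correlation of -0.00719 across all genes. This value cannot exclude a replicate effect shared by some genes only.

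The members and gene lists were chosen with earlier results of these data known. The naming rule took every measured member and, of each list, the 3 genes with the smallest unadjusted p and both ends by difference. Not all list genes it took are given in the text. Genes outside it are marked as chosen with their values in view, apart from genes of the stem cell, neutrophil, dendritic cell and class II lists and standard catalytic subunits, which were described as lists. Alternatives were a second quantile normalization, centred medians, filters on dim genes, a variance trend, the mean of all probe sets, the replicate number as a block and each array left out. Promoter sequences are from RefSeq.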

Additional observations from a re-analysis of the deposited data

How the results depend on the processing

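With limma, 0 genes passed the threshold under a second quantile normalization, centred array medians, both filters on dim genes and the mean of all probe sets, as with the values reported, while 1 passed with a variance trend. With the replicate number as a block 47 genes passed, none of them a measured class I gene. No label states that the replicate numbers pair the samples. Leaving out 1 array gave between 2 and 1442 genes, the most without WT replicate 2. In such a fit the error comes only from the genotype that keeps both arrays. Without a WT array that is the Hif1a-/- pair, with a median absolute difference of 0.107, against 0.193 between the WT arrays. The lone array is assumed to vary like that pair, so these counts cannot be read as numbers of genotype differences. Other causes of the counts were not tested. The count of class I genes with a lower mean in Hif1a-/- cells, recomputed as a choice made after seeing the data, was 6 of 8 under the second quantile normalization and ran between 5 and 8 with single arrays left out. Differences that turned were those of Tapbp (0.0044) and Nlrc5 (0.0096) under the second quantile normalization, and with single arrays left out Tap1 (-0.31 to 0.20), Tapbp (-0.51 to 0.43) and Nlrc5 (-0.13 to 0.11). Of 88 values of single genes under these alternatives, 79 kept their direction and their side of the threshold. Many of them could not turn. Both filters, the variance trend and the replicate block leave each difference as it was and alter only its p-value. The mean of all probe sets could move only Nlrc5, since each other measured class I gene has a single set. The median over the 8 genes stayed below 0 in each alternative that could move it, from -0.16 to -0.02. Arrays of 2 samples a genotype cannot resolve differences of the size seen here, and the signal over background of single probes was not analysed here.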
